A study of Mus musculus with 15 samples.

Results

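Mouse E14 embryonic stem (ES) cells that received an siRNA against Dux (siDux) were compared with cells that received a control siRNA (siControl), all of them under the same control antisense oligonucleotide, the RC ASO. The libraries were taken by their labels, and the comparison uses 6 of the 15 libraries of the series, 3 with siDux and 3 with siControl. The cells of all groups were of E14Tg2A, an established feeder-independent mouse ES cell line, grown in serum with LIF. They were nucleofected with 5 nmol of ASO, left for 7 h, transfected with 100 pmol of siRNA per well by Lipofectamine 2000, and collected on day 2 without sorting, so that cells which took up no siRNA are part of every library. Both compared groups therefore carry the RC ASO, the nucleofection and an siRNA, and neither is an untreated culture. The other 9 libraries, 3 each, are LINE1 ASO with siControl, LINE1 ASO with siDux, and RC ASO with an siRNA against nucleolin (siNcl), and they are used here for values set side by side. Nothing in the labels says that replicates came from separate cultures, so the p-values speak of the spread among these libraries alone, and that spread may be a technical one.

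Dux is a transcription factor with a pair of homeodomains that is expressed briefly when the mouse embryo activates its genome at the 2-cell stage. In ES cell cultures a small and changing share of cells enters a 2-cell-like state in which Dux switches on Zscan4, Tcstv and other genes of that stage together with the endogenous retrovirus MERVL, whose long terminal repeat (MT2_Mm) serves as a promoter. LINE1 RNA, nucleolin and Trim28 are known to keep Dux silent in ES cells. The transcription factor p53, which answers to DNA damage and other stress by arrest, repair and death genes and by its own inhibitor Mdm2, is also known to act on Dux in mouse cells, and Dux products are toxic when they stay high. In bulk RNA, fewer 2-cell-like cells and less RNA per such cell cannot be told apart.

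Each compared library held between 10.1 M and 17.4 M counts on genes, and ES cell markers summed to between 5053 and 9156 CPM (counts per 1 M of a library size scaled by the TMM method) in all 6. Control replicate 2 stood apart from the others. Genes with transcripts under 1000 bases took 5.89% of its counts and at most 4.15% in the other 5 libraries, and its chi-square distance per degree of freedom to the other control libraries was 32.7 and 47.8, where controls 1 and 3 differed by 5.65. Repeats added 5.81% to 6.70% to the gene counts in the control libraries and 6.84% to 7.51% with siDux.

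The siRNA target itself was too rare to be measured. Dux was counted at 4, 1 and 3 reads in control replicates 1 to 3 and at 2, 0 and 5 reads in siDux replicates 1 to 3. The libraries of the groups overlap. The ratio of the summed counts, siDux over control, was 0.874 with an exact 95% interval from 0.270 to 2.76 that covers counting error only, so a change of Dux within those bounds was not detectable at this depth. The edgeR quasi-likelihood test gave a log2 change of -0.29 ± 0.83 (SE) with an adjusted p of 0.862. Under the LINE1 ASO, where Dux was counted at 67 reads with siControl and 42 with siDux, the ratio was 0.487 with an interval from 0.323 to 0.726. Dux, Zscan4, Tcstv and Dub genes have near-identical copies, and how reads with several positions entered these tables is not stated in any label or header at hand, so values of single copies are uncertain.

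Genes of the 2-cell-like state were lower with siDux although Dux was scarcely counted. The 6 genes Zscan4a to Zscan4f, whose zinc finger proteins are known for telomere lengthening in ES cells, summed to 9.23, 7.08 and 7.48 CPM in control replicates 1 to 3 and to 0.822, 0.882 and 1.41 CPM in siDux replicates 1 to 3. Every siDux library stood far below every control library, on 90, 74 and 126 reads in the controls against 10, 10 and 22 reads with siDux. Across genes, a log2 change is siDux minus control from edgeR's quasi-likelihood test on 14696 genes, its error is the SE, and a gene rose or fell when its p adjusted by Benjamini-Hochberg over all of them was under 0.05. By that rule 895 genes rose, 6.09% of those tested, and 661 fell, 4.5% of them. This fit does not pair the libraries by replicate number, and with that number as a block 1331 rose and 1126 fell. The median change of all genes was -0.01.

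Of 53 listed 2-cell-like genes 39 were in the table and 31 could be tested, while the 8 left out for low counts held 2 reads in all controls and 0 with siDux. 12 of the 31 fell and 1 rose. With ERCC scaling, by spike-in RNAs, 8 fell, and in a fit of the 6 compared libraries alone 7 of 18 tested members fell. The median log2 change of the 31 was -1.80, or -1.68 with Zscan4b and Tdpoz4 set to the bound that their 8 against 0 reads allow, at least 2.82-fold lower. The siDux libraries lay below all control libraries for 20 of the 31, and for 13% of all genes tested. 10 of the 13 called members also passed in each of the 6 fits that left out 1 compared library.

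Tcstv1, a 2-cell stage gene of unknown biochemical role, was counted at 4.10, 7.37 and 4.28 CPM in the controls and at 0.0822, 0.0882 and 0.256 CPM with siDux. These groups are far apart, and Tcstv1 fell by 5.02 ± 0.56 on the log2 scale with an adjusted p of 8.63e-05. Its neighbour Tcstv3 stood at 3.08, 2.58 and 2.08 CPM in the controls and at 0.493, 0.353 and 0.448 CPM with siDux. No library of one group reached the other, and the log2 change of Tcstv3 was -2.52 ± 0.38 with an adjusted p of 0.000632.

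Zscan4c, the best-studied member of its cluster in ES cells, was counted at 25, 29 and 29 reads in the controls and at 0, 2 and 8 reads with siDux. The siDux libraries were all lower, with a log2 change of -3.14 ± 0.49 and an adjusted p of 0.000865. Zscan4d, the member transcribed in 2-cell embryos, went from 1.95, 1.44 and 1.96 CPM to 0.0822, 0 and 0.384 CPM. The groups do not overlap, and Zscan4d fell by 3.29 ± 0.57 on the log2 scale with an adjusted p of 0.00207, and by 5.17 in the fit without siDux replicate 3. Zscan4f fell as well, from 1.74, 1.44 and 1.07 CPM to 0.411, 0.353 and 0.0640 CPM, by 2.38 ± 0.53 with an adjusted p of 0.00961, but without siDux replicate 3 its log2 change was -1.82 with an adjusted p of 0.0699, and it did not pass with ERCC scaling or in the compared libraries alone, with adjusted p of 0.0783 and 0.0601. Zscan4a also fell, with a log2 change of -2.47. Zscan4b and Zscan4e, at 8 and 12 reads in all controls together, did not pass.

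The promoters of the Zscan4 genes are shown because these are the members that fell for which a promoter was at hand, and because they have in common the letters TGAT and AATCA with 2 free bases between them, a loose form of the sequence that the homeodomains of Dux are known to bind. The windows run from 250 bases before to 50 bases after the RefSeq gene start in the GRCm38.p6 build, another build than the mm9 of the deposited counts, and the capitals mark the letters. Zscan4c lies at chr7:11005495-11005794 on the plus strand, Zscan4d at chr7:11166099-11166398 on the minus strand and Zscan4f at chr7:11397665-11397964 on the plus strand.
Zscan4c: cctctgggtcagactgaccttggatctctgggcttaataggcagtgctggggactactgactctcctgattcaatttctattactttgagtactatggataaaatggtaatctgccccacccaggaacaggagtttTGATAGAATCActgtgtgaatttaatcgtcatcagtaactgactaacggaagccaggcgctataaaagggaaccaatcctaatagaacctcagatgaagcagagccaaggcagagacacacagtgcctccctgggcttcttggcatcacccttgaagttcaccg
Zscan4d: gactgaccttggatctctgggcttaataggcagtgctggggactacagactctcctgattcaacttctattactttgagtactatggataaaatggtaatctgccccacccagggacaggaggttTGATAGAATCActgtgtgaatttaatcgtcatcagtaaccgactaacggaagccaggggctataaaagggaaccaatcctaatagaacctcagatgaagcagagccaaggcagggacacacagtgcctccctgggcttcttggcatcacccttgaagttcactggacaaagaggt
Zscan4f: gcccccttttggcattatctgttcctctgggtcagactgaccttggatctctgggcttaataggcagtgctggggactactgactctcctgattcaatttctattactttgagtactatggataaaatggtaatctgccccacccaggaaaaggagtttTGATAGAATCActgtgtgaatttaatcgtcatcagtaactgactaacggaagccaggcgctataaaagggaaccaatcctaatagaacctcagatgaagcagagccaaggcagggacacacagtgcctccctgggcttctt
In all 3 windows the letters read TGATAGAATCA, and they begin 114, 125 and 91 bases before the start. All 4 Zscan4 promoters in the RefSeq table hold them, against 0.207% of the 32851 promoters in it, searched on both strands. Only 21 of the 53 listed 2-cell-like genes had a promoter in the table, and the other 17 of those do not hold the letters. The stricter form with a T as the base after TGAT was in 0.0335% of all promoters and in none of the 3 shown. These letters were chosen after the promoters had been read, and a match is a description of the window, not a binding site.

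The remaining members that fell are less studied. Tmem92, a transmembrane protein gene, had a log2 change of -3.37, B020031M17Rik of -2.74, Gm12794 of -2.59 and Gm8300 of -1.80. Gm5662 and Gm2022 also fell, by 2.02 and 1.68, but each passed in only 3 of the 6 fits without 1 library. Zfp352, a zinc finger gene of 2-cell embryos, was counted at 1.33, 1.63 and 1.25 CPM in the controls and at 0.247, 0.617 and 0.768 CPM with siDux. Its groups do not overlap, yet with a log2 change of -1.31 ± 0.52 and an adjusted p of 0.113 it did not pass. Dppa2 and Dppa4, chromatin factors known to act upstream of Dux, had log2 changes of 0.36 and 0.09 and did not pass either.

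The 1 listed gene that rose was Zfp750, which is better known as a regulator of epidermal differentiation than as a 2-cell gene. The siDux libraries lay above all control libraries for 2 of the 31 tested members, and for 14.2% of all genes tested. With the replicate block and with DESeq2, 2 members were called higher. Zfp750 was counted at 7.07, 4.31 and 4.75 CPM in the controls and at 18.5, 13.5 and 23.4 CPM with siDux. Each siDux library exceeded each control, and Zfp750 rose by 1.80 ± 0.22 with an adjusted p of 0.000147.

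**Figure D1:**
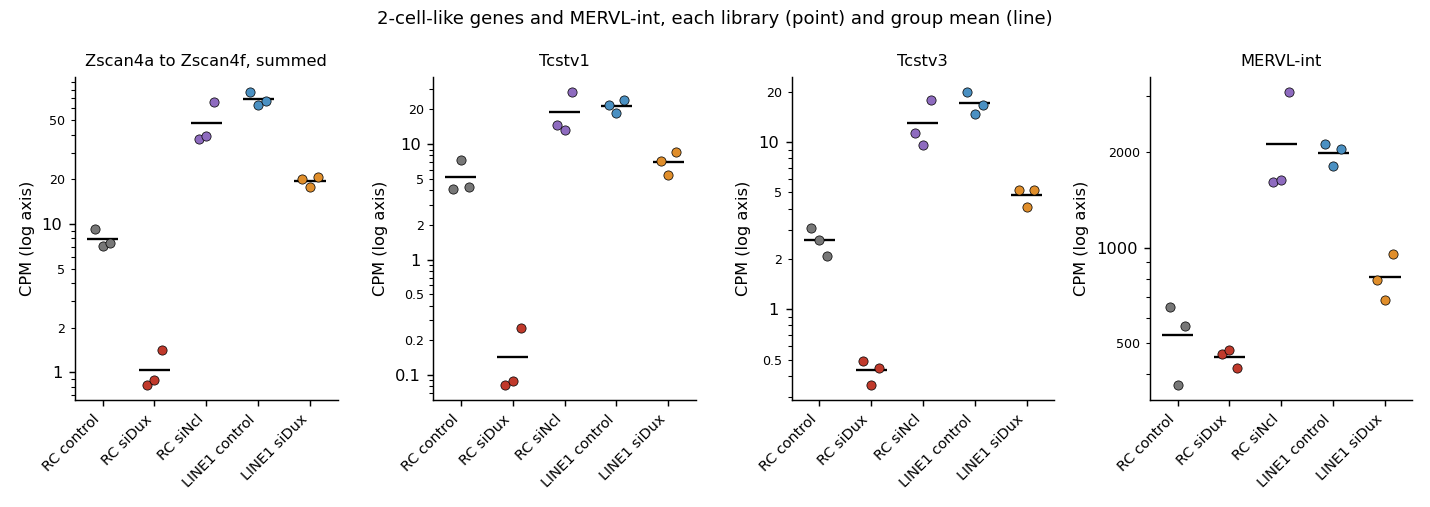
CPM, on a log axis, of Zscan4a to Zscan4f summed, Tcstv1, Tcstv3 and the MERVL internal region in each library of 5 groups, with 1 point per library. The 3 siDux libraries under the RC ASO lie below their controls for the Zscan4 sum (0.822 to 1.41 against 7.08 to 9.23 CPM), while for MERVL-int the groups overlap, and the groups with the LINE1 ASO or siNcl sit higher.

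MERVL, the retrovirus of the 2-cell-like state, did not pass the test. MERVL-int, the internal region of MERVL, was counted at 651, 370 and 568 CPM in the controls and at 464, 477 and 417 CPM with siDux, scaled by the gene counts. The siDux values lie inside the range of the controls, and the log2 change was -0.23 ± 0.22 with an adjusted p of 0.638. MT2_Mm, its long terminal repeat, stood at 79.0, 82.7 and 70.9 CPM in the controls and at 63.4, 64.2 and 49.5 CPM with siDux. Every siDux library was below every control for MT2_Mm, yet with a log2 change of -0.39 ± 0.18 and an adjusted p of 0.311 (unadjusted 0.0378) it did not pass. Under the LINE1 ASO both fell with siDux, MERVL-int by 1.3 with an adjusted p of 0.00608 and MT2_Mm by 1.16 with an adjusted p of 0.00206. In the test of the difference between the ASOs edgeR and DESeq2 each called 0 of 808 repeat subfamilies, with 4 higher and 21 lower at an unadjusted p under 0.05 in edgeR. In edgeR the difference was -1.07 ± 0.31 for MERVL-int (unadjusted p 0.00283) and -0.77 ± 0.25 for MT2_Mm (unadjusted p 0.00554). Both had an adjusted p of 0.936. These effects are thus not shown to differ over all subfamilies, and they are not shown to be alike either.

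Among all 808 subfamilies 2 rose, 0.248% of them, and 1 fell, 0.124%. RLTR45-int, the internal region of a rodent endogenous retrovirus, was counted at 81.7, 58.8 and 55.1 CPM in the controls and at 178, 122 and 115 CPM with siDux. The groups do not overlap, with a log2 change of 1.09 ± 0.18 and an adjusted p of 0.00581. SSU-rRNA_Hsa, reads on small-subunit ribosomal RNA, stood at 1619, 1666 and 1520 CPM against 2376, 2330 and 2685 CPM and rose by 0.62 ± 0.11 with an adjusted p of 0.0115, but not without siDux replicate 3, when the log2 change was 0.56. MLT1G3, an old LTR element, went from 5.54, 8.62 and 6.30 CPM to 3.04, 4.06 and 3.33 CPM, a log2 change of -0.97 with an adjusted p of 0.0378, and no longer passed without control replicate 2, siDux replicate 1 or siDux replicate 3, with log2 changes of -0.78, -0.88 and -0.93. RLTR45-int, SSU-rRNA_Hsa and MLT1G3 averaged 114, 2464 and 3.91 CPM with siNcl, against 138, 2463 and 3.48 CPM with siDux. None of them passed in the edgeR contrast of siDux with siNcl, with adjusted p of 0.598, 0.999 and 0.818.

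The 6 young LINE1 subfamilies of the L1Md group, the repeats that carry active LINE1 copies, summed to 6837, 3621 and 4498 CPM in the controls and to 9463, 8071 and 5691 CPM with siDux. Control 1 lies above siDux 3, so the groups overlap, while within each replicate number the siDux library was the higher. None of the 6 passed, and their median log2 change was 0.58 beside 0.09 for all repeats. The same 6 summed to 9062, 7667 and 6093 CPM with siNcl and to 8388, 7402 and 5399 CPM with the LINE1 ASO and siControl. Control replicates 2 and 3 were thus the lowest of these libraries. None of the 6 passed between siDux and siNcl, with log2 changes from -0.07 for L1Md_Gf to 0.12 for L1Md_A. With the replicate number as a block, L1Md_F2, L1Md_A, L1Md_T and L1Md_F3 passed with log2 changes of 0.55, 0.70, 0.60 and 0.53 and adjusted p of 0.0151, 0.0153, 0.0192 and 0.0250. IAPEz-int, the internal region of the IAP retrovirus, passed there too with a log2 change of 0.37 and an adjusted p of 0.0192. That fit called 21 repeats higher and 4 lower in all.

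Targets of p53 held the highest share of risers among the 31 lists. Of 36 listed targets, all of them tested, 24 rose and none fell, beside 6.09% of all genes that rose, and their median log2 change was 0.65. 15 of the 24 also passed in each of the 6 fits that left out 1 library, and 15 targets were called without siDux replicate 3. With ERCC scaling 9 of them were called, and 14 in a fit of the 6 compared libraries alone. The list holds general targets, drawn up with earlier results of these data known.

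Mdm2, the ubiquitin ligase that degrades p53 and is itself a p53 target, was counted at 166, 162 and 141 CPM in the controls and at 380, 328 and 479 CPM with siDux. Every siDux library was above every control, and Mdm2 rose by 1.34 ± 0.14 on the log2 scale with an adjusted p of 6.00e-05. Trp73, a p53 family member, went from 7.79, 5.26 and 5.76 CPM to 24.8, 15.3 and 30.7 CPM. The groups do not overlap, and the log2 change of Trp73 was 1.93 ± 0.23 with an adjusted p of 0.000112.

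Ddit4l, an inhibitor of mTOR signalling, was counted at 11.4, 11.3 and 9.21 CPM in the controls and at 27.4, 20.6 and 34.6 CPM with siDux. It rose in all 3 siDux libraries, by 1.39 ± 0.19 with an adjusted p of 0.000392. Ephx1, an epoxide hydrolase, moved from 13.7, 11 and 11.2 CPM to 21.6, 21.7 and 25.1 CPM. Its log2 change was 0.94 ± 0.12 with an adjusted p of 0.000247, and the groups are again separate.

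Other targets that passed in every fit without 1 library were the cell cycle genes Btg2 (log2 change 1.3), Gtse1 (0.63), Plk2 (1.47) and Plk3 (0.82). The death genes Perp (1.27), Eda2r (0.67), Apaf1 (0.67) and Trp53inp1 (0.82) passed in every such fit too, as did the repair polymerase gene Polk (0.68) and the immune genes Cd80 (1.68) and Tap1 (1.53). Cdkn1a, the inhibitor of cyclin-dependent kinases through which p53 halts the cell cycle, was counted at 39.0, 35.9 and 41.3 CPM in the controls and at 62.4, 49.3 and 88.7 CPM with siDux. All siDux libraries were higher, and its log2 change of 0.79 had an adjusted p of 0.0217, but it passed in only 4 of the 6 fits without 1 library, and without siDux replicate 3 it was 0.53 with an adjusted p of 0.131. Fas, which encodes a death receptor, and Phlda3 also passed, with log2 changes of 1.88 and 0.80, and lost the call without siDux replicate 3, at 1.43 and 0.65.

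12 listed targets did not pass, with log2 changes from -0.37 for the repair gene Ddb2 to 0.59 for Dcxr. Bax, which permeabilizes mitochondria in apoptosis, had a log2 change of -0.27 and an adjusted p of 0.297. Its 3 siDux libraries stood at 194, 195 and 196 CPM, and its controls at 196, 331 and 181 CPM, with the high value in control replicate 2.

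A RefSeq promoter window of Cdkn1a is shown because it holds a pair of CATG letters with 6 free bases between them, the core of a p53 response element, given in capitals. It lies at chr17:29090729-29091028 on the plus strand of GRCm38.p6.
Cdkn1a: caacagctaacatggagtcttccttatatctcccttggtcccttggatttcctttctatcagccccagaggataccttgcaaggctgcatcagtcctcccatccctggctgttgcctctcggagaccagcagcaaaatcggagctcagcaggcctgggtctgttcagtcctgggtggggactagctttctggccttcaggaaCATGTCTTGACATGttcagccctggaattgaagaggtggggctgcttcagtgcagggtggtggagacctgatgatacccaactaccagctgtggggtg
The letters begin 48 bases before the RefSeq start of this window. A gene can have several RefSeq starts, and only windows that hold the letters were shown, so this need not be the main start of Cdkn1a. Of the 19 targets that rose and had a promoter in the table, Cdkn1a was the 1 that holds these letters. Among all 27025 gene symbols with a promoter 0.833% do. The letters were chosen after promoters had been read, and known p53 sites of many targets lie outside such windows.

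**Figure D2:**
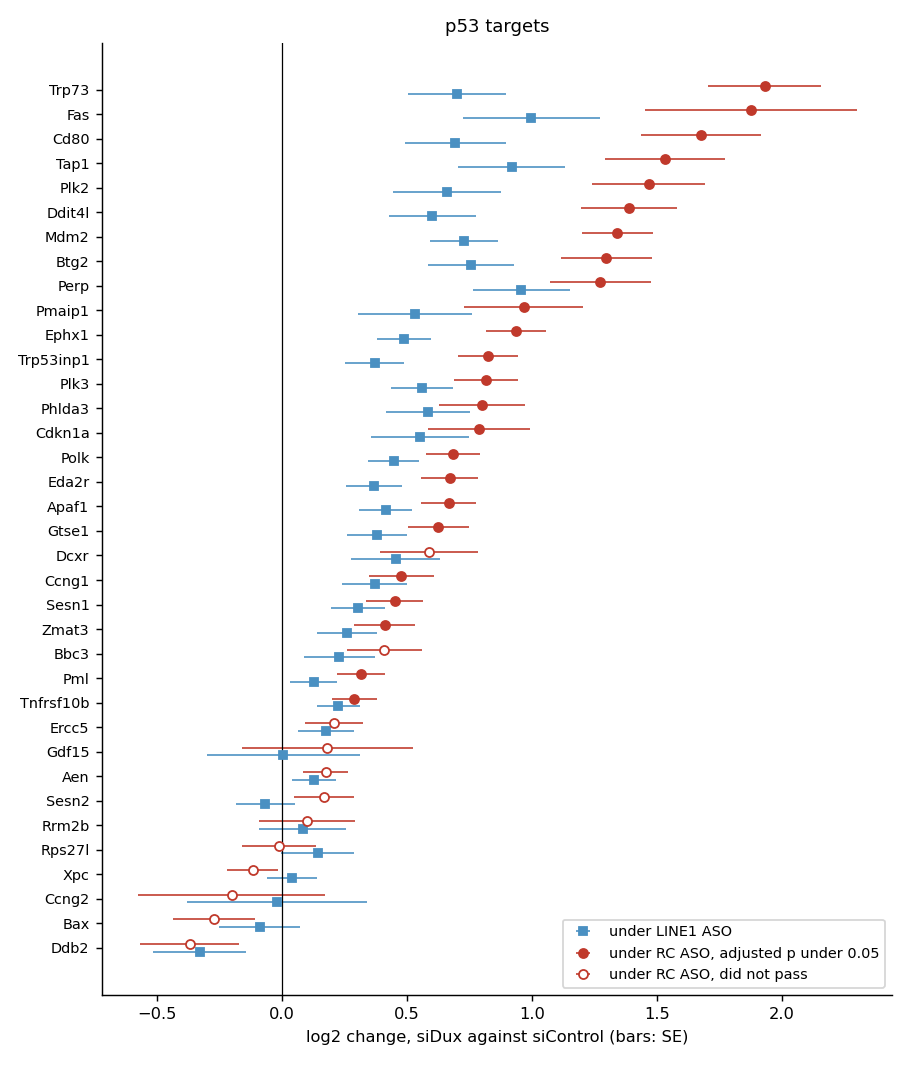
Log2 change with siDux of 36 p53 targets, points with 1 SE, under the RC ASO and under the LINE1 ASO. 24 targets rose under the RC ASO and 4 under the LINE1 ASO, with medians of 0.65 and 0.37.

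Set beside the other groups, the p53 targets of the siDux libraries were not the highest. Mdm2 averaged 915 CPM with siNcl under the RC ASO, 351 CPM with the LINE1 ASO and siControl, and 581 CPM with the LINE1 ASO and siDux, so the 3 RC control libraries were the lowest of the series. Trp73 averaged 37.1, 18.6 and 30.3 CPM in the same groups. In the direct contrast of siDux with siNcl, 23 of the 36 targets were lower and none higher, with a median of -0.70. In that contrast 1044 of all genes were higher, 7.1%, and 1401 lower, 9.53%. Of the 895 genes that rose against siControl, 92 were also higher than with siNcl and 264 were lower. Of the 661 that fell, 119 were also lower than with siNcl and 58 were higher. The rest were not called against siNcl, which does not show them to be alike. 

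Large rises were more common than large falls, with 342 genes higher and 44 lower by at least 2-fold among those called. Ptprv, a receptor-type phosphatase known as a p53 target in mouse, was counted at 10.2, 8.23 and 7.84 CPM in the controls and at 38.4, 31.0 and 45.7 CPM with siDux. All siDux libraries were far above the controls, with a log2 change of 2.15 ± 0.16 and an adjusted p of 4.00e-06. Rtkn went from 8.51, 11.8 and 6.47 CPM to 45, 34 and 61.3 CPM. These ranges are well apart, and Rtkn rose by 2.42 ± 0.23 with an adjusted p of 2.70e-05.

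Msln, the surface protein mesothelin, was counted at 3.18, 2.97 and 1.96 CPM in the controls and at 12.2, 15.3 and 9.41 CPM with siDux. Its control values all lie below its siDux values, and Msln rose by 2.22 ± 0.23 with an adjusted p of 6.00e-05. It was also above the siNcl libraries, which averaged 5.74 CPM, by 1.10 with an adjusted p of 0.00183. Apol8, an apolipoprotein L family gene, rose from 0.615, 1.05 and 0.238 CPM to 4.27, 4.85 and 9.60 CPM. Its log2 change of 3.43 ± 0.45 was the largest among the genes that averaged at least 5 CPM in the higher group, did not overlap between the groups and were named by their change.

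Fbp1, the gluconeogenic fructose bisphosphatase, had a log2 change of 2.87, and Plcd4, a phospholipase C, of 2.32. Cpz, a carboxypeptidase that binds Wnt proteins, rose by 2.24 and Tbx4, a T-box factor of the hindlimb, by 2.14. C4b, a complement component, rose by 2.76 and Vdr, the vitamin D receptor, by 2.96, both from under 1 CPM. Each of these 6 passed in every fit without 1 library, with ERCC scaling and in a fit of the 6 compared libraries alone.

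**Figure D3:**
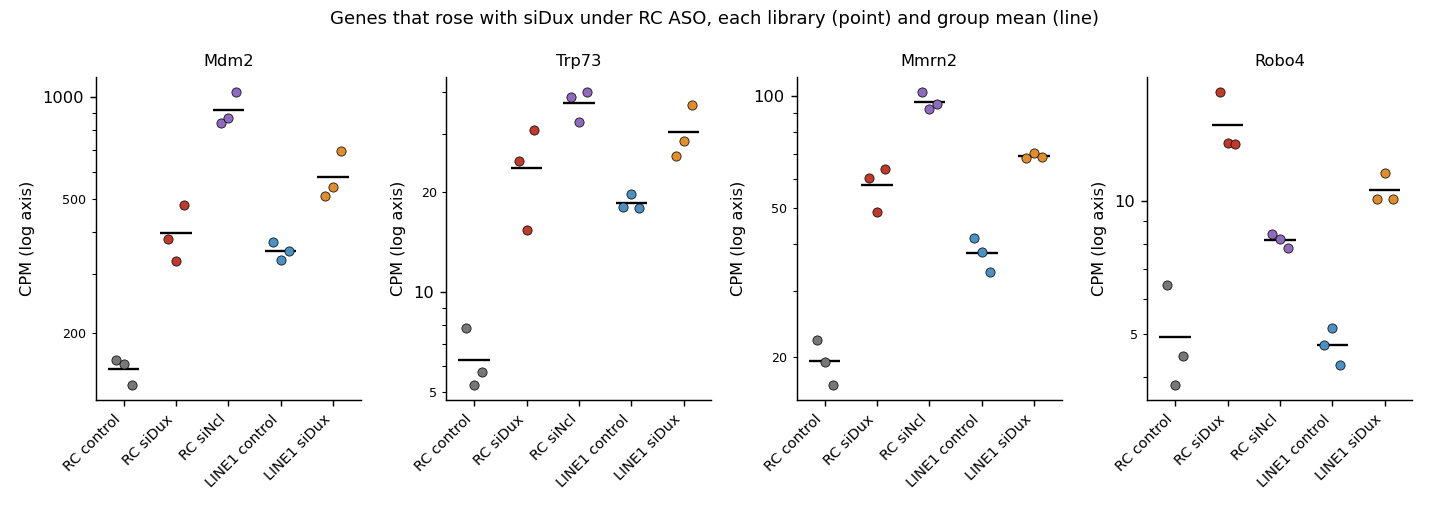
CPM of Mdm2, Trp73, Mmrn2 and Robo4 in each library of 5 groups, with 1 point per library. The siDux libraries under the RC ASO lie above their controls for all 4 genes, and siNcl libraries are higher still for Mdm2 (mean 915 CPM) and not for Robo4 (mean 8.14 CPM).

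Some endothelial genes rose. Of 23 tested members of an endothelial list 7 rose, or 30.4% beside 6.09% of all genes. The 1 that fell, Egfl7 by 0.70, made 4.35% beside 4.5% of all genes, and the list median was 0.45. Mmrn2, an extracellular protein of vessel walls, was counted at 22.1, 19.3 and 16.8 CPM in the controls and at 60.3, 48.9 and 63.7 CPM with siDux. The groups are separate, and Mmrn2 rose by 1.58 ± 0.12 with an adjusted p of 4.00e-06. Egfl7 passed in 3 of the 6 fits without 1 library. Against siNcl 3 of the 23 members were higher and 3 lower, with a median of 0.18.

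Robo4, a guidance receptor of endothelium, stood at 6.46, 3.83 and 4.45 CPM in the controls and at 17.7, 13.5 and 13.4 CPM with siDux. It rose in all siDux libraries, by 1.61 ± 0.18 with an adjusted p of 8.92e-05, and exceeded the siNcl libraries by 0.87 with an adjusted p of 0.00251. Eng, a co-receptor for TGF-beta, moved from 22.8, 16.2 and 20.6 CPM to 49.6, 38.3 and 50.8 CPM. Its log2 change was 1.22 ± 0.14 with an adjusted p of 0.000112, with no overlap. Kdr, the VEGF receptor that also marks mesoderm, rose from 2.87, 1.34 and 1.66 CPM to 8.47, 5.47 and 11.3 CPM, by 2.14 ± 0.29 with an adjusted p of 0.000379. Tek, the angiopoietin receptor, rose by 0.95 in log2, and Ets1 and Cd34 rose by 1.25 and 0.53 but passed in only 4 of the 6 fits without 1 library.

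Of the 5 defining endothelial markers Tek was the 1 that passed, from a mean of 21.0 to 40.4 CPM with an adjusted p of 0.000474. Emcn had no read in any of the 6 libraries, which allows 3 reads per group. Erg, an endothelial ETS factor, had 3 reads in the controls and 16 with siDux and was not tested, and Cdh5 had 16 and 24 reads and did not pass. Pecam1, which ES cells express, averaged 90.6 and 102.8 CPM with an adjusted p of 0.456. The 5 endothelial markers summed to between 103 and 127 CPM in the controls and to between 139 and 151 CPM with siDux.

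Some epidermal genes rose as well. 12 of 25 tested members rose, or 48% beside 6.09% of all genes, and none fell, with a median of 0.58. In the contrast of siDux with siNcl 2 of the 25 were higher and 4 lower, with a median of -0.01. Of all genes 7.1% were higher and 9.53% lower in that contrast. Of the 12, 6 passed in every fit without 1 library. Krt15, a keratin of basal epidermis, was counted at 0, 3 and 4 reads in the controls and at 22, 33 and 98 reads with siDux. No control library came near a siDux library, with a log2 change of 4.26 ± 0.66 and an adjusted p of 0.000818. Krt5, its partner keratin, had 2, 1 and 1 reads against 12, 17 and 29 reads, a rise of 3.66 ± 0.57 with an adjusted p of 0.000864. Both stay rare in ES cells.

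Perp, a desmosome protein and p53 target counted in both lists, stood at 40.7, 52.9 and 38.6 CPM in the controls and at 100, 79.4 and 139 CPM with siDux. It rose in all 3 siDux libraries, by 1.27 ± 0.20 with an adjusted p of 0.00102. The integrin Itgb4 rose by 0.95, and Zfp750 belongs to this list as well. Klf4, which is also a pluripotency factor, is counted among the risers of this list too. Without siDux replicate 3 the list held 8 calls, with ERCC scaling 4, and in a fit of the 6 compared libraries alone 6. The 4 epidermal markers, Krt5, Krt14, Trp63 and Casp14, summed to between 0.862 and 2.02 CPM in the controls and to between 3.86 and 6.21 CPM with siDux. Trp63 had 10 reads in the controls and 17 with siDux and was not tested, and Krt14 had 23 and 50 reads with an adjusted p of 0.311. Whether other cells had a part in the endothelial and epidermal changes was not tested.

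Basement membrane and other extracellular matrix genes were higher in part. 8 of 31 tested members rose, or 25.8% beside 6.09% of all genes, and none fell, with a median of 0.28. Against siNcl 4 of the 31 were higher and 3 lower, with a median of -0.18. Of the 8, 6 passed in every fit without 1 library. Col4a1, a chain of collagen IV, was counted at 46.9, 34.8 and 43.3 CPM in the controls and at 77.0, 67.1 and 70.6 CPM with siDux. The groups are separate, and Col4a1 rose by 0.78 ± 0.13 with an adjusted p of 0.00146. Hspg2, the proteoglycan perlecan, went from 259, 164 and 189 CPM to 372, 363 and 294 CPM, a log2 change of 0.75 ± 0.14 with an adjusted p of 0.00273. Lama5, Fbln2 and Col4a2 rose by 0.61, 1.05 and 0.56. With ERCC scaling none of the list was called, and 2 were in a fit of the 6 compared libraries alone.

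Other lineage genes changed one by one. Neurod1, a proneural factor, was counted at 13.4, 17.1 and 11.8 CPM in the controls and at 32.4, 31.5 and 38.4 CPM with siDux. The siDux range lies above the control range, with a log2 change of 1.28 ± 0.19 and an adjusted p of 0.000567. Neurod1 was 1 of 3 genes that rose among 21 neural genes tested, a share of 14.3% beside 6.09% of all genes. It was the 1 of these 3 that passed in every fit without 1 library. Wnt3a, the ligand of the primitive streak, had 4, 6 and 4 reads in the controls and 31, 18 and 32 reads with siDux. It rose by 2.41 ± 0.47 with an adjusted p of 0.00494, as 1 of 6 among 25 streak and mesoderm genes (24%), which had a median of 0.38. Of these 6 risers 2 passed in every fit without 1 library, and 3 were called without siDux replicate 1 and 2 without siDux replicate 3. Apob, a lipoprotein of visceral endoderm, rose by 1.66 ± 0.27 with an adjusted p of 0.00126, as 1 of 6 among 27 endoderm genes (22.2%) with a median of 0.35. Without siDux replicate 1 or siDux replicate 3 the endoderm list held 3 calls, and without control replicate 2 it held 4. Against siNcl 1 endoderm gene was higher and 2 were lower, with a median of -0.01. For the streak and mesoderm genes these counts were 0 and 3, with a median of 0.31. With 2 of 21 trophoblast genes and 2 of 30 germline genes, or 9.52% and 6.67%, the share of risers was near the 6.09% of all genes, and neither list held a call without siDux replicate 3. The germline list held none without control replicate 2 either, and the 17 fibroblast genes tested had a median of 0.02.

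The core pluripotency factors Pou5f1, Sox2 and Nanog did not pass. They had log2 changes of -0.26, -0.20 and 0.32 with adjusted p of 0.200, 0.174 and 0.229. Klf4, another pluripotency factor, did rise, from a mean of 127 to 181 CPM. Its log2 change was 0.51 with an adjusted p of 0.0344 in edgeR. It lost the call without control replicate 2 (0.47), control replicate 3 (0.47), siDux replicate 1 (0.49) or siDux replicate 2 (0.44). Among 28 pluripotency genes 2 rose, 7.14% beside 6.09% of all genes, and 3 fell, 10.7% beside 4.5%. Without control replicate 2 none rose and 2 fell. Of the 5 that were called 1 passed in every fit without 1 library. Lin28a, an RNA-binding protein that blocks let-7 maturation and is known to hold back the 2-cell-like state, was counted at 598, 579 and 662 CPM in the controls and at 442, 407 and 454 CPM with siDux. Its groups do not overlap, and Lin28a fell by 0.50 ± 0.09 with an adjusted p of 0.00341. Dppa3, an oocyte factor that protects DNA methylation, fell by 1.28 from 36.4, 71.0 and 53.6 CPM to 17, 23.7 and 25.3 CPM, but it passed in only 3 of the 6 fits without 1 library, and without control replicate 2 its log2 change was -1.04. Of 33 regulators of Dux 4 fell, Lin28a, Hdac1, Atrx and Pcgf6, a share of 12.1% beside 4.5% of all genes. Lin28a was the 1 of them that passed in every fit without 1 library, while Pcgf6 was lost without control replicate 2, at -0.24. Trim28 had a log2 change of -0.15 with an adjusted p of 0.416.

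Ncl, which encodes nucleolin and was not targeted in these groups, was counted at 4532, 6200 and 4648 CPM in the controls and at 3961, 3941 and 3903 CPM with siDux. All siDux libraries were lower, with a log2 change of -0.38 ± 0.12 and an adjusted p of 0.0589, and with the replicate number as a block the adjusted p was 0.0498. With siNcl it averaged 593 CPM.

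Among the genes that fell, aminoacyl-tRNA synthetases and serine synthesis genes came together in the list of targets of ATF4, the factor that raises amino acid supply in the integrated stress response. 14 of 49 tested members fell and none rose, beside 4.5% of all genes that fell, with a median of -0.32. 3 of the 14 passed in every fit without 1 library. The count was 4 without siDux replicate 1, 4 without siDux replicate 3, 9 without control replicate 3, 0 in a fit of the 6 compared libraries alone and 0 with ERCC scaling, where the median of the list was 0.00 and that of all genes 0.31. In the same order these fits called 221, 154, 1093, 41 and 10 of all genes lower, and the main fit 661.

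Sars, the seryl-tRNA synthetase, was counted at 361, 527 and 387 CPM in the controls and at 244, 311 and 259 CPM with siDux. Its siDux values all lie below its control values, and Sars fell by 0.65 ± 0.13 with an adjusted p of 0.00458. Slc7a3, a carrier of cationic amino acids, went from 246, 261 and 230 CPM to 161, 178 and 120 CPM. The groups do not overlap, and its log2 change was -0.68 ± 0.14 with an adjusted p of 0.00522. Nars, the asparaginyl-tRNA synthetase, moved from 527, 697 and 590 CPM to 415, 482 and 422 CPM, a fall of 0.46 ± 0.10 with an adjusted p of 0.00813.

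The other synthetases that fell were Aars, Cars, Eprs, Gars, Lars, Mars, Tars and Yars, with log2 changes from -0.40 to -0.28. Phgdh, Psph and Psat1, the 3 enzymes of serine synthesis, fell by 0.80, 0.56 and 0.49. None of these 11 passed in all 6 fits without 1 library. Atf4 itself and Asns, its asparagine synthetase target, had log2 changes of -0.15 and -0.27 and did not pass. Sars averaged 163 CPM with siNcl, and 22 of the 49 members were higher with siDux than with siNcl, with a median of 0.45.

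The promoter of Aars is shown for the letters TGATGNAA, in capitals, which stand for the composite element that ATF4 binds. It lies at chr8:111033592-111033891 on the plus strand of GRCm38.p6.
Aars: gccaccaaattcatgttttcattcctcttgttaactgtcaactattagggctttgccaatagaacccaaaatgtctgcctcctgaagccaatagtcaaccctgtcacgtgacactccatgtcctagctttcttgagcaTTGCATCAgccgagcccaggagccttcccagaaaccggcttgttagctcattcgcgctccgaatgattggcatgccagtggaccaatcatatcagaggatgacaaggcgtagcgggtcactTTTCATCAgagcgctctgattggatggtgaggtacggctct
Both matches are on the other strand, where they read as TTGCATCA and TTTCATCA from the strand shown. Of the 9 ATF4-list genes that fell and had a known promoter, 4 hold the letters, Aars, Gars, Tars and Yars. Among all 27025 gene symbols with a promoter 4.51% do. The letters TGATGNAA can overlap those searched in the Zscan4 promoters where the first of its free bases is a G.

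**Figure D4:**
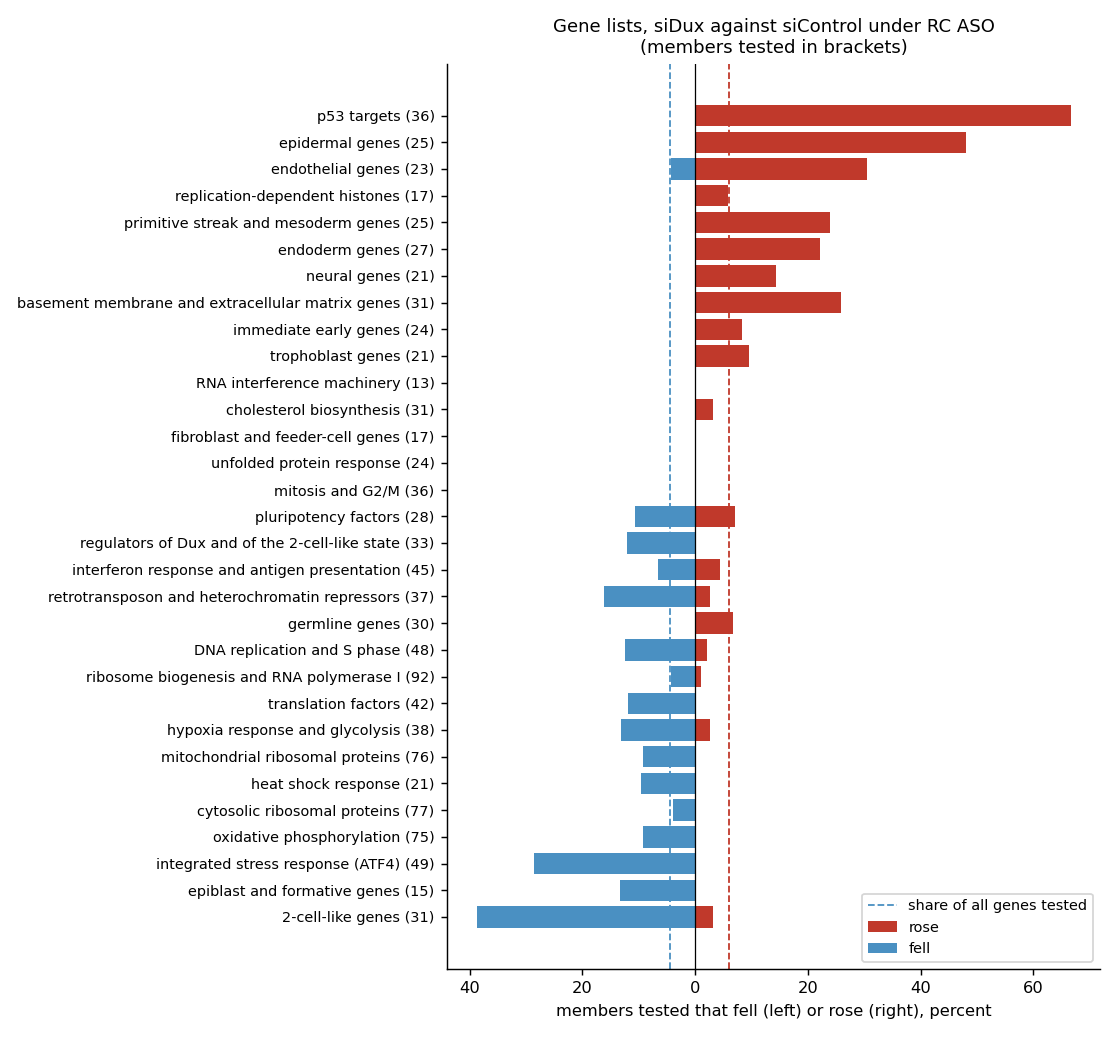
Percent of tested members that rose (to the right) or fell (to the left) with siDux under the RC ASO in 31 gene lists, with dashed lines at the 6.09% and 4.5% of all genes tested. The p53 targets reach 66.7% higher, epidermal genes 48% and endothelial genes 30.4%, and the 2-cell-like genes 38.7% lower.

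The changes of short and very abundant genes moved with control replicate 2. The 77 cytosolic ribosomal protein genes tested had a median of -0.25 with 3 falls, and without control replicate 2 a median of -0.03 with 1. Without control replicate 3 that median was -0.36 with 25 falls, without control replicate 1 it was -0.33 with 18, and without any 1 of the siDux libraries no ribosomal protein gene fell. Over all genes 469 of 14996 fell without control replicate 2, 1093 of 14880 without control replicate 3 and 885 of 15006 without control replicate 1. Without siDux replicates 1, 2 and 3 in turn, 221 of 14986, 520 of 14985 and 154 of 14915 fell. The median of 75 oxidative phosphorylation genes was -0.31 with 7 falls (9.33%). It was -0.07 with 4 without control replicate 2, and -0.43 with 39 without control replicate 3. Mitochondrial ribosomal protein genes, 76 of them, had a median of -0.18 with 7 falls (9.21%). This was -0.04 with 3 without control replicate 2 and -0.26 with 21 without control replicate 3. All 3 medians were above 0 with ERCC scaling, at 0.11, 0.07 and 0.17, which stays below the median of all genes there.

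Across all genes the median log2 change ran with transcript length, from -0.19 for the 682 genes under 1000 bases to 0.11 for the 1296 genes over 7000 bases. Without control replicate 2 the medians of the 6 length classes lay between -0.01 and 0.02, and under the LINE1 ASO between -0.02 and 0.01. Snrpe, a core protein of spliceosomal particles with a short transcript, was counted at 137, 369 and 128 CPM in the controls and at 63.3, 71.4 and 65.4 CPM with siDux. The siDux range lies below the control range, and Snrpe fell by 1.66 ± 0.28 with an adjusted p of 0.00163, and by 0.99 without control replicate 2, where it still passed.

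**Figure D5:**
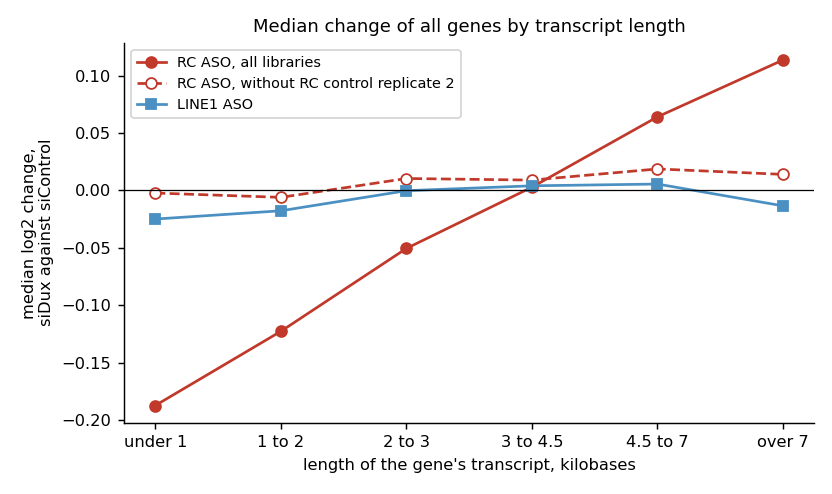
Median log2 change with siDux of genes in 6 classes of transcript length, under the RC ASO with all libraries, without control replicate 2, and under the LINE1 ASO. The slope from -0.19 to 0.11 is present with all RC ASO libraries, and the other lines stay between -0.02 and 0.02.

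Other genes fell by clear margins. Glod5, a glyoxalase-domain gene, was counted at 10.7, 12.5 and 10.7 CPM in the controls and at 5.26, 6.53 and 4.09 CPM with siDux. The groups do not overlap, and it fell by 1.10 ± 0.18 with an adjusted p of 0.00125. Ephx2, the soluble epoxide hydrolase, went from 39.5, 67.2 and 44.0 CPM to 19.8, 30.3 and 18.9 CPM, a log2 change of -1.13 ± 0.21 with an adjusted p of 0.0029. Pdk1, a kinase that inhibits pyruvate dehydrogenase in mitochondria, fell from 258, 271 and 259 CPM to 147, 162 and 111 CPM, by 0.91 ± 0.15 with an adjusted p of 0.00168.

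Pdk1 was 1 of 5 hypoxia and glycolysis genes that fell among 38, a share of 13.2% beside 4.5% of all genes, with a median of -0.15. Pfkfb4, another regulator of glycolysis, rose by 1.34. The list held 1 fall without control replicate 2, with a median of -0.03, and also 1 without siDux replicate 1 and 1 without siDux replicate 3. With ERCC scaling it held none, and Pdk1 had a log2 change of -0.56. Bst2, an antiviral membrane protein, fell by 0.94 ± 0.15 with an adjusted p of 0.00126. In the interferon list of 45 genes 2 rose and 3 fell, or 4.44% and 6.67% beside 6.09% and 4.5% of all genes. Of those called 2 passed in every fit without 1 library. Fosl1, an immediate early factor, rose by 2.10 ± 0.27 with an adjusted p of 0.000272. Hist1h2bc, a histone gene known to make polyadenylated RNA too, was counted at 3.59, 3.06 and 3.27 CPM in the controls and at 9.70, 10.1 and 7.04 CPM with siDux. It rose by 1.43 ± 0.24 with an adjusted p of 0.00159, under the LINE1 ASO by 1.26 with an adjusted p of 0.0117, and averaged 3.44 CPM with siNcl.

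The same siRNA under the LINE1 ASO was measured in 6 other libraries, and fewer genes passed. There 80 genes rose, 0.544% of those tested, and 45 fell, 0.306%. Of these, 75 and 30 also rose or fell under the RC ASO, which is 93.8% and 66.7% of the LINE1 ASO calls and 8.38% and 4.54% of the RC ASO calls, and 0 were called in opposite directions. Of the 895 genes that rose under the RC ASO 885 had a positive change under the LINE1 ASO, with medians of 0.81 and 0.43, and of the 661 that fell 653 had a negative one, with medians of -0.50 and -0.22. Among all genes 49.4% had the same sign as a rise and 50.6% that of a fall. A median over called genes is drawn away from 0 by the call itself under the RC ASO, so these sizes are not a test.

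In the test of the difference between the ASOs, edgeR called 0 genes, with 491 at an unadjusted p under 0.05 and a smallest adjusted p of 0.0957, for Ptprv, while DESeq2 called 1 higher and 10 lower. Mmrn2 and Msln rose under both ASOs, by 0.87 and 1.38 under the LINE1 ASO, and so did Rtkn, by 1.13. The 2-cell-like list had 18 falls under the LINE1 ASO with a median of -1.61, from higher levels. Zscan4a to Zscan4f summed to between 63.3 and 77.6 CPM with the LINE1 ASO and siControl and to between 17.8 and 20.7 CPM with the LINE1 ASO and siDux. With siNcl they summed to between 37.5 and 66.7 CPM, and 28 of the 31 tested members were lower with siDux than with siNcl.

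The count of calls depended on which libraries were used. 358 of the 895 genes that rose and 127 of the 661 that fell were called in each of the 6 fits that left out 1 compared library. Without siDux replicate 1 the fit called 593 higher and 221 lower, without siDux replicate 3 it called 406 and 154, and without control replicate 3 it called 885 and 1093. With the replicate number as a block 1331 were higher and 1126 lower, and a fit of the 6 compared libraries alone called 201 and 41. Scaling by the ERCC spike-in RNAs put the median change of all genes at 0.31 and called 187 higher and 10 lower, so that 94.9% of the calls were higher, against 57.5% with TMM. Spike-in reads came to 0.303% to 0.647% of the gene counts in the controls and to 0.273% to 0.523% with siDux. They thus varied widely within each group and overlapped between the groups, so 0.31 is not shown to be a shift of all genes.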

How the data were processed

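RNA of mouse ES cells was sequenced in 15 libraries, and the authors deposited whole-number counts of reads, with 23284 genes and 92 ERCC spike-ins in a gene table and 1217 subfamilies in a repeat table. Per the submitters' processing notes, Trim Galore 0.4.0, TopHat2 2.0.9, the mm9 build, R 3.3.0 and DESeq2 1.12.3 were used. Per the labels' protocols, libraries came from DNase-treated total RNA with a directional kit. The members, the gene lists and the tests were chosen with earlier results of these data known.

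The counts were analysed in R 4.3.3 with edgeR 4.0.16, after filterByExpr by group and TMM scaling without the ERCC rows, in 1 quasi-likelihood fit with 1 term per group over all 15 libraries (10 residual degrees of freedom). Repeats took the library sizes and factors of the gene table. P-values were adjusted by Benjamini-Hochberg over all features of a table, with a threshold of 0.05. The spread is thus shared with groups outside the comparison. CPM refer to TMM-scaled gene counts. The study's notes name no design, so no block entered this fit.

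Genes named are a fixed set of 2-cell, pluripotency and repressor genes and repeats, up to 12 genes per direction by size of change (called, at least 5 CPM in the higher group, no overlap), up to 4 called members per list by p, up to 5 called repeats per direction, and up to 4 per direction of the difference between ASOs. Other list members, among them Cdkn1a and the promoters shown, were chosen after their values were seen.

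Deviations from the group means correlated between same-numbered libraries of the compared groups by 0.355, 0.239 and 0.340 over 10644 genes. Values for libraries with different numbers are not given beside them, so these correlations do not by themselves show a pairing. The numbers were taken to pair the samples in the replicate block only, and the main fit left the pairing out. Alternatives were RLE and ERCC scaling, no filter, a stricter filter of 5 CPM, thinning to 9546481 counts, DESeq2 1.42.0, the replicate block, the 6 compared libraries alone and each library left out. Transcript lengths were matched for 98.9% of genes. Promoter sequences are from RefSeq (GRCm38.p6). The fit was also run on simulated counts. Those held no replicate pairing and no short-gene excess like that of control replicate 2, so that run cannot speak for the calls made here.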

Additional observations from a re-analysis of the deposited data

How the results depend on the processing

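The balance of calls depended on the scaling and on the libraries. With ERCC scaling 187 genes were higher and 10 lower, and 0 repeats passed in either direction. In a fit of the compared libraries alone 201 genes were higher and 41 lower, and 0 repeats passed in either direction. There 72 of 129 named results lost their call. With ERCC scaling 71 of 131 lost it in the same direction, and so did 6 of the 9 that changed sign. RLE scaling left 56.4% of the calls higher, the compared libraries alone gave 83.1%, and leaving out 1 compared library gave 44.7% (without control replicate 3) to 72.9% (without siDux replicate 1). With the replicate block 1331 genes were higher and 1126 lower, 21 repeats higher and 4 lower, 6 named results gained a call and none lost one. DESeq2 called 1075 genes higher and 993 lower, 4 repeats higher and 2 lower. For repeats, own scaling called 1 higher, and the stricter filter and the thinned libraries called 0 lower.

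Leaving out each library in turn gave 406 to 927 genes higher and 154 to 1093 lower, and 1 to 4 repeats higher and 0 to 5 lower. Of 131 named results, 51 lost their call without siDux replicate 3, 44 without siDux replicate 1, 29 without control replicate 2, 20 without siDux replicate 2, 10 without control replicate 3 and 3 without control replicate 1. The cause was not tested. The log2 change of Dux ranged from -1.28 to 0.27, and it was 0.20 without siDux replicate 2. The ratio of Dux counts ranged from 0.414 to 1.3, and was 0.828 with TMM-scaled totals.

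For the difference between ASOs, DESeq2 called 1 gene higher and 10 lower, the fit with no filter 1 lower, and leaving out a library 0 to 1 lower. Against siNcl, ERCC scaling called 51 higher and 62 lower, the fit of those libraries alone 1717 higher, and leaving out a library 591 to 828 higher and 822 to 1119 lower.

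Under ERCC scaling 9 named genes that had a negative change had a positive one. These were Trim28 at 0.15, Pou5f1 at 0.11, Sox2 at 0.15, Hdac1 at 0.040, Pcgf6 at 0.048, Nop56 at 0.043, Sdha at 0.054, Eif5 at 0.0045 and Chordc1 at 0.030, all below the median of all genes of 0.31. RLE scaling kept the call and direction of all 131 named results. Depth limits Dux, Emcn and other genes with a few reads per library.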

Other observations

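Other gene groups held few calls. Of all genes 6.09% rose and 4.5% fell, and the shares in brackets are to be read beside these. Epiblast and formative genes had a median of -0.34 with 2 of 15 lower (13.3%), and 0 of these passed in every fit without 1 library. The falls numbered 5 without control replicate 2, and 1 without control replicate 3, where the median was -0.12. There were 0 without siDux replicate 1, without siDux replicate 2, with ERCC scaling and in the compared libraries alone. The 17 replication-dependent histone genes tested had a median of 0.41 with 1 rise (5.88%). Of 42 translation factors 5 fell (11.9%), with a median of -0.14, and without control replicate 2 this was 2 with a median of -0.07. Among 24 genes of the unfolded protein response and 36 of mitosis and G2/M, edgeR called 0, with medians of 0.01 and -0.05. Of 48 DNA replication and S phase genes 1 rose (2.08%), the ribonucleotide reductase subunit Rrm2 by 0.29, and 6 fell (12.5%), with a median of -0.12. None of these 7 passed in every fit without 1 library, and the falls numbered 2 without control replicate 2, 0 without siDux replicate 1 and 0 without siDux replicate 3. The 31 cholesterol synthesis genes had a median of 0.04, and the 1 that rose, the fatty acid elongase Elovl6 by 0.45, passed in 3 of the 6 fits without 1 library and not without control replicate 2 (0.35). Of 37 repressors of retrotransposons and heterochromatin 6 fell (16.2%) and 1 rose (2.70%), and 1 of these 7 passed in every fit without 1 library. Cbx1, which encodes a heterochromatin protein that reads methylated histone tails, was counted at 246, 300 and 251 CPM in the controls and at 201, 181 and 198 CPM with siDux. All siDux libraries were lower, and Cbx1 fell by 0.46 ± 0.10 with an adjusted p of 0.00722 (edgeR). The 13 genes of the RNA interference machinery, which an siRNA occupies, had a median of 0.05.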
